A study of Saccharomyces cerevisiae with 4 samples.

Results

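The import machinery of mitochondria was described by 39 genes taken by name: the members of the TOM, SAM and TIM complexes, the import motor, the disulfide relay of the intermembrane space, the processing peptidases and the insertase OXA1. All 39 were found among the 5897 genes of the table, and all 39 were among the 5784 genes tested. The comparison asked how transcript levels differ between a stress and a non-stress condition. Polyadenylated RNA was taken from the budding yeast Saccharomyces cerevisiae, industrial strain CY, after 10 h of shaking in yeast extract and peptone medium. Non-stress meant 30 °C and 2% glucose (2 libraries), and stress meant 36 °C and 10% glucose (2 libraries). Temperature and glucose changed together and cannot be told apart. The labels name no gene edit in either group, and they do not say whether the 2 libraries of a group came from separate cultures. All p-values here therefore judge a difference only against the spread between these libraries, which may be technical.

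Nearly all mitochondrial proteins are made in the cytosol as precursors and are imported. The TOM complex is the common entry gate of the outer membrane. From there, precursors with a cleavable presequence pass to the TIM23 complex and are pulled into the matrix by a motor built around the Hsp70 Ssc1, carriers of the inner membrane are escorted by small TIM chaperones to the TIM22 complex, barrel proteins go back into the outer membrane through the SAM complex, and small proteins of the intermembrane space are trapped by disulfide bonds that Mia40 and Erv1 introduce.

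Expression was measured as FPKM, the fragments of a gene divided by its transcript length and by the mapped total of the library. The length used was here an estimated 36 or 37 bases below the deposited one. Levels of genes of different length can thus be set side by side. The depth of a library, estimated from the steps between its lowest FPKM values, was 18800000 and 18700000 fragments (non-stress) and 18100000 and 18200000 fragments (stress), and a member of the machinery was covered by an estimated 250 to 44550 fragments in a library. Replicates of a member differed little, with a median coefficient of variation of 2.8% and a highest of 14.5%, that of SAM50 in the non-stress libraries. None of the 39 coding sequences shared a window of 50 bases with another coding sequence, and no annotated gene overlapped them, so reads could be assigned to them without a near-identical copy. FPKM is a share of a library: cytosolic ribosomal protein genes held 23.1% ± 0.855 of all FPKM under non-stress and 1.55% ± 0.0233 under stress (SD, 2 libraries each). Setting the library totals equal with these genes left out lowered the median log2 fold change of all genes by 0.43. Equal totals with these genes kept moved the median gene by -0.09. In bulk libraries a change in RNA per cell and a change in the kinds of cells present cannot be told apart.

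Most of the machinery was higher in the stress libraries, by amounts that differed widely between its parts. Of the 39 members 31 rose, against 39.8% of all genes tested, and 2 fell, against 47.9% (limma, adjusted p threshold of 0.05); a call in either direction was made for 87.7% of all genes. Their median log2 fold change was 0.87, where that of all 5784 genes was -0.14. A rise of at least 2-fold was found for 19 members, against 19.0% of all genes, and no member fell by that much, against 26.9%. The groups did not overlap for 35 members, a share near that of all genes (93.8%). The summed FPKM of the 39 genes was 5234.8 and 5232.4 in the non-stress and 12852.8 and 13005.8 in the stress libraries, a 2.47-fold difference, and their part of the whole library went from 0.524% ± 0.00795 to 1.22% ± 0.00488 (SD, n = 2). The 5 largest rises were those of the small TIM chaperones TIM10, TIM9 and TIM13, the motor protein SSC1 and MIA40 of the disulfide relay. With the deposited scaling, the TIM22 complex, the receptors TOM20 and TOM71 and the nucleotide exchange factor MGE1 were within 0.3 of 0 on the log2 scale. So were TIM12, MDM10, TIM21, SOM1, ICP55 and OXA1. The levels also spread apart: the highest and the lowest mean differed 8.54-fold among the 39 genes in non-stress and 48.8-fold in stress libraries.

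**Figure D1:**
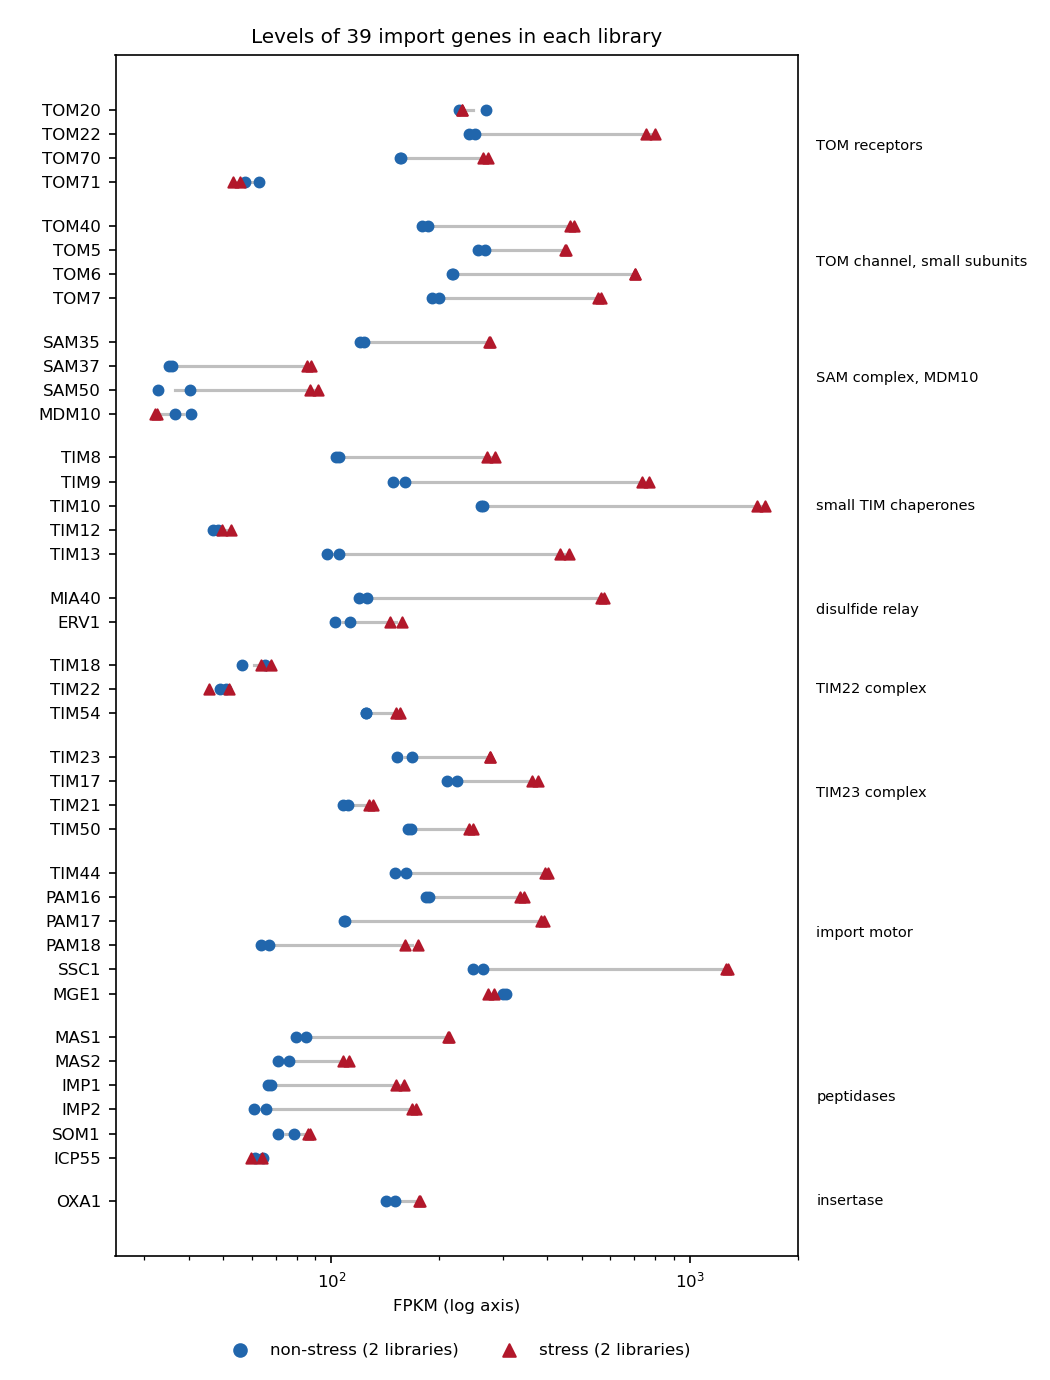
FPKM of each of the 39 import genes on a log axis, grouped by role, with a blue circle for each of the 2 non-stress libraries and a red triangle for each of the 2 stress libraries and a grey line between the group means. TIM10, at 262 to 265 in non-stress and 1541 to 1620 in stress libraries, shows the widest gap, while the symbols of TIM22, TIM18, TOM20 and ICP55 overlap.

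The receptors of the TOM complex did not move together. TOM22, the central receptor that also organises the complex, was at 241.55 and 251.02 FPKM in the non-stress and 754.59 and 798.51 FPKM in the stress libraries. It rose 3.15-fold (log2 fold change 1.65 ± 0.053, SE; adjusted p = 2.24e-09). TOM20, the receptor that recognises presequences, was at 226.44 and 269.18 FPKM in non-stress and at 231.89 and 231.07 FPKM in stress libraries. The stress values lay between the non-stress values, and TOM20 did not pass the test (-0.09 ± 0.077, adjusted p = 0.277). It was called lower without non-stress replicate 1 (-0.22, adjusted p = 0.00172), with equal FPKM sums (-0.18, 0.0237), after quantile normalization (-0.29, 0.0154) and with ribosomal protein genes left out of the total (-0.53, 6.51e-05). In non-stress libraries TOM20 and TOM22 were thus at nearly equal levels, with ratios of 0.937 and 1.07, and in stress libraries the ratios were 0.307 and 0.289. TOM70, the receptor for carriers and other precursors that arrive with chaperones, went from 156 ± 1.34 to 269 ± 5.89 FPKM (SD, n = 2), a rise of 1.73-fold. Its less abundant copy TOM71 was at 62.68 and 57.55 FPKM against 55.77 and 53.13 FPKM and did not pass (-0.14 ± 0.067, adjusted p = 0.0775). TOM71 was called lower without non-stress replicate 2 (-0.20, adjusted p = 0.0115), with equal FPKM sums (-0.23, 0.0132) and with ribosomal protein genes left out (-0.57, 2.18e-05). The proteins of TOM70 and TOM71 are identical at 54.2% of 600 aligned residues, and the level of TOM70 was 2.47 and 2.72 times that of TOM71 in non-stress and 4.75 and 5.15 times in stress libraries.

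The channel and the small subunits of the TOM complex all rose. TOM40, the barrel that forms the pore, was at 186.24 and 179.07 FPKM in non-stress and 475.59 and 463.7 FPKM in stress libraries, 2.57-fold higher. TOM6 and TOM7, small subunits that affect how stable the assembled complex is, rose 3.23-fold and 2.87-fold. TOM5, a small subunit that passes precursors on to the pore, rose least of the 4, from 262 ± 8.97 to 450 ± 2.47 FPKM (1.72-fold). TOM5, TOM6 and TOM7 have short coding lengths of 153, 186 and 183 bases. Their levels against longer genes are therefore less certain than their differences between groups.

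In the SAM complex, which folds barrel proteins into the outer membrane, the 3 core genes rose by similar amounts. SAM50, itself a barrel and the central subunit, went from 40.43 and 32.92 FPKM to 87.34 and 91.85 FPKM, and its partners SAM35 and SAM37 rose 2.27-fold and 2.43-fold. The ratio of SAM35 to SAM37 was 3.48 and 3.34 in non-stress and 3.14 and 3.24 in stress libraries. MDM10, a barrel that joins the SAM complex and also the tether between mitochondria and the endoplasmic reticulum, went the other way, from 40.52 and 36.61 to 32.16 and 32.56 FPKM (log2 fold change -0.24 ± 0.074, adjusted p = 0.0121), although with quantile normalization its sign turned (0.02), and without either stress library it did not pass (adjusted p = 0.0746 and 0.0571).

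The small TIM chaperones, which carry hydrophobic precursors across the intermembrane space, had the highest median log2 fold change of any role (2.13), although TIM12 did not pass. TIM10 was at 262.07 and 265.39 FPKM in non-stress and 1540.74 and 1620.19 FPKM in stress libraries, 5.99-fold higher (log2 fold change 2.58 ± 0.05, SE; adjusted p = 9.36e-11). TIM9, which forms a ring of alternating subunits with TIM10, rose 4.86-fold, from 155 ± 8.12 to 752 ± 21.6 FPKM (SD, n = 2). Levels of TIM9 were 0.612 and 0.561 times those of TIM10 in non-stress and 0.498 and 0.455 times in stress libraries, so that the gap widened a little. TIM8 and TIM13 form a second ring of this kind. TIM13 rose 4.41-fold, from 97.41 and 105.05 to 458.74 and 433.13 FPKM, and TIM8 2.68-fold, from 102.95 and 104.97 to 285.75 and 271.96 FPKM. Their ratio, TIM8 to TIM13, was 1.06 and 0.999 in non-stress and 0.623 and 0.628 in stress libraries. TIM12 is the member of this family that docks the TIM9 and TIM10 ring on the TIM22 complex. It was at 46.9 and 48.2 FPKM in non-stress and at 49.6 and 52.51 FPKM in stress libraries, which did not overlap but did not pass (0.10 ± 0.064, adjusted p = 0.166). Its call went both ways with the scaling: TIM12 was called higher after quantile normalization (0.29, adjusted p = 0.00312) and median centring (0.29, 0.00213), and lower with ribosomal protein genes left out (-0.33, 0.000717). TIM10 was therefore at 5.59 and 5.51 times the level of TIM12 in non-stress and at 31.1 and 30.9 times in stress libraries. Together the 5 genes went from 0.0672% to 0.293% of the summed FPKM.

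All 5 belong to the same protein family, and the stretches below show what they share at the sequence level. Each runs from the first to the last cysteine codon of the family pattern, in which a pair of cysteines 3 residues apart is followed by a second such pair. These cysteines are the ones that form disulfide bonds inside each small TIM. The sequences are those of the coding strand of the R64 reference (RefSeq, strain S288C), not of strain CY, and the capitals mark the 4 cysteine codons of the pattern. The stretches lie at chrX:677100-677174, plus strand (TIM8), chrV:117313-117387, plus strand (TIM9), chrVIII:115707-115784, minus strand (TIM10), chrII:427287-427367, minus strand (TIM12) and chrVII:858455-858517, plus strand (TIM13), each inside the single coding exon of its gene.
TIM8: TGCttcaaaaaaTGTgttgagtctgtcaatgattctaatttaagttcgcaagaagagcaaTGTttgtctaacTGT
TIM9: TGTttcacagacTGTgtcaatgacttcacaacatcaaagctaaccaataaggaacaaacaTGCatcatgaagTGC
TIM10: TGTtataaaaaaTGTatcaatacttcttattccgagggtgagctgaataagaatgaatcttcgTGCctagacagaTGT
TIM12: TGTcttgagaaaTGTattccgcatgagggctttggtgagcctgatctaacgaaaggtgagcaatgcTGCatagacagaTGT
TIM13: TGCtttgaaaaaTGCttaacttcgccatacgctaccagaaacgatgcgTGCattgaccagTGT

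TIM12 has 6 cysteines where the other 4 proteins have 4 each, and a further cysteine codon stands directly before its second pair, in lower case. Between the cysteine pairs lie 15 residues in TIM8 and TIM9, 16 in TIM10, 17 in TIM12 and 11 in TIM13. TIM10 and TIM12 are identical at 34.1% of 91 aligned residues, which makes them the closest of the pairs of small TIM genes compared, while TIM9 and TIM10 are identical at 25.3% and TIM8 and TIM13 at 16.1%. TIM10 and TIM12 also had the widest gap in log2 fold change of the pairs within this family, 2.58 against 0.10.

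The disulfide relay introduces the bonds of these cysteines. MIA40, the receptor that oxidises incoming precursors, was at 125.35 and 119.72 FPKM in non-stress and 566.35 and 576.02 FPKM in stress libraries, 4.66-fold higher (log2 fold change 2.21 ± 0.05, SE; adjusted p = 2.35e-10). ERV1, the oxidase that restores MIA40 after each round, rose 1.41-fold, from 102.1 and 112.75 to 145.62 and 156.93 FPKM, and with ribosomal protein genes left out of the total it did not pass (0.05, adjusted p = 0.466). The MIA40 to ERV1 ratio was 1.23 and 1.06 in non-stress and 3.89 and 3.67 in stress libraries.

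The 250 bases before the start codon are shown for TIM10 and MIA40, which rose strongly, and for TIM12 and ERV1, their partners that rose little or did not pass. Capitals mark CCAAT, the core of the site bound by the Hap2/3/4/5 complex, an activator of respiratory genes in yeast, read on either strand (ATTGG on the strand printed). The windows, from the R64 reference (RefSeq), lie at chrVIII:115902-116151, minus strand (TIM10), chrII:427485-427734, minus strand (TIM12), chrXI:75571-75820, plus strand (MIA40) and chrVII:543303-543552, plus strand (ERV1).
TIM10: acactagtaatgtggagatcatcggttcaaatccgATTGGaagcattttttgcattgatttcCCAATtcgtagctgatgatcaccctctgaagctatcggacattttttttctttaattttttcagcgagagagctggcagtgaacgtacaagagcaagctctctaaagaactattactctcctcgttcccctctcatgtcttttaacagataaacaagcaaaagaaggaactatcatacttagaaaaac
TIM12: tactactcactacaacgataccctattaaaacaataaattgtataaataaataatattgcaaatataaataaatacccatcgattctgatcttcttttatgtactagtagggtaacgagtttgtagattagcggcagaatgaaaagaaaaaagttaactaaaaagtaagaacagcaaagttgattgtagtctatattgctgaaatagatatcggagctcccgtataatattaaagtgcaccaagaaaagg
MIA40: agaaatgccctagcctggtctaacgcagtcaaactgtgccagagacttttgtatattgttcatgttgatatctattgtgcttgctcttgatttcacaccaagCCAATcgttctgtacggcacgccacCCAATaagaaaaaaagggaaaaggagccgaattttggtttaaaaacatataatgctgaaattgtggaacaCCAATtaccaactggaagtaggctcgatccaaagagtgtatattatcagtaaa
ERV1: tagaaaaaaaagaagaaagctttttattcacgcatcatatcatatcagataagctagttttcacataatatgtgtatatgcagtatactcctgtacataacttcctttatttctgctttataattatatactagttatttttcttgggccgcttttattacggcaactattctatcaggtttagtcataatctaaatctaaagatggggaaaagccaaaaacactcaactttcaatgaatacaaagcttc

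The window of MIA40 held 3 such matches, with their first bases at -148, -123 and -53 from the start codon, and that of TIM10 held 2, at -215 and -188, of which the first lies in a neighbouring noncoding RNA gene, YNCH0003C. TIM9 also held 2 and TIM13 1, while no CCAAT was found in the windows of TIM8, TIM12, ERV1, TIM18 or TIM22. Both genes lacked it in the pairs SSC1 and MGE1, and TOM22 and TOM20, in which only the first gene rose. TOM6, which rose 3.23-fold, also lacked it. TOM71, TIM54, TIM21 and ICP55, which rose little or did not pass, each held 1 match, that of TIM54 lying in the neighbouring gene LOG1. Of all 39 windows 16 held CCAAT (41.0%, against 35.7% of all windows). A match was found for 10 of the 19 members that rose at least 2-fold (52.6%) and 6 of the other 20 (30.0%). Over the whole table the shares were 39.2% of 1100 genes that rose at least 2-fold and 35.0% of the other 4680, out of 5893 windows of this length. None of these differences between shares was tested. AGGGG, the stress response element read on either strand, was in 4 of 39 windows (10.3%, against 18.9% of all; 3 of the 19 and 1 of the other 20), GATGAG, the core of a site found before ribosome assembly genes, in 5 (12.8%, against 16.6%; 2 and 3), and the heat shock letters GAANNTTC or TTCNNGAA in 7 (17.9%, against 19.3%; 4 and 3). Over the whole table AGGGG was in 32.3% of the genes that rose at least 2-fold and 16.1% of the others. GATGAG was in 11.6% and 17.5%, and the heat shock letters were in 17.8% and 19.8%. These differences were not tested either. All these matches describe letters in a window of the reference and do not show binding.

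The TIM22 complex, which inserts carriers into the inner membrane, was the role with the smallest changes. The channel gene TIM22 was at 50.76 and 48.98 FPKM in non-stress and 51.71 and 45.63 FPKM in stress libraries, and the subunit TIM18 at 65.3 and 56.37 against 67.79 and 63.82 FPKM. The groups overlapped for both, and neither passed (-0.04 ± 0.075, adjusted p = 0.651, and 0.11 ± 0.079, adjusted p = 0.196). TIM18 was called higher after quantile normalization (0.25, adjusted p = 0.0155), after median centring (0.30, 0.00303) and without non-stress replicate 1 (0.22, 0.00822). With ribosomal protein genes left out of the total both were called lower (TIM18 -0.32, adjusted p = 0.00357; TIM22 -0.47, 0.000209). TIM54, the large subunit facing the intermembrane space, was at 124.87 and 125.06 against 151.38 and 155.57 FPKM, a rise of 1.23-fold (adjusted p = 0.000456), but with ribosomal protein genes left out of the total its sign turned (-0.15).

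The TIM23 complex, the presequence translocase, rose as a whole by modest amounts. TIM23 and TIM17, the related channel subunits, rose by nearly the same factor, 1.73-fold (160 ± 11.1 to 277 ± 0.898 FPKM) and 1.71-fold (217 ± 9.71 to 370 ± 10.9 FPKM; SD, n = 2). The TIM17 to TIM23 ratio was 1.38 and 1.33 in non-stress and 1.31 and 1.36 in stress libraries, with overlapping groups. The receptor TIM50 rose 1.49-fold. TIM21, which links the translocase to the respiratory chain, was 1.18-fold higher (111.3 and 107.77 against 127.62 and 130.22 FPKM; adjusted p = 0.00241), with the opposite sign when ribosomal protein genes were left out of the total (-0.21). The ratio of TIM22 to TIM23, the channel genes of the carrier and presequence routes, was 0.334 and 0.292 in non-stress and 0.187 and 0.165 in stress libraries.

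The import motor rose, apart from its exchange factor. SSC1, the matrix Hsp70 that pulls precursors in, was at 264.49 and 248.49 FPKM in non-stress and 1275.98 and 1262.72 FPKM in stress libraries, 4.95-fold higher (log2 fold change 2.30 ± 0.052, SE; adjusted p = 2.18e-10). Its closest copy in the genome, ECM10, named after its values were seen, is identical at 81.8% of 638 aligned residues but was far less abundant, at 10.5 ± 0.771 and 30.7 ± 1.24 FPKM. MGE1, which releases ADP from SSC1 so that it can work again, was at 306.89 and 300.89 FPKM in non-stress and 272.52 and 284.58 FPKM in stress libraries. This small fall (-0.13 ± 0.05, adjusted p = 0.0401) had the opposite sign after median centring (0.06), and it was lost without non-stress replicate 1 and without either stress library (adjusted p = 0.0559, 0.293 and 0.081). MGE1 was the most abundant of the 39 transcripts in the non-stress libraries. The SSC1 to MGE1 ratio was 0.862 and 0.826 in non-stress and 4.68 and 4.44 in stress libraries. TIM44, which ties SSC1 to the channel, rose 2.55-fold. PAM18, the J protein that triggers SSC1, and PAM16, the J-like protein that restrains it, rose 2.56-fold and 1.83-fold, and the ratio of PAM16 to PAM18 went from 2.74 and 2.94 to 2.09 and 1.97. PAM17, which helps the motor assemble at the channel, rose 3.57-fold, from 109.09 and 108.47 to 384.74 and 391.49 FPKM.

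Of the processing enzymes, MAS1 and MAS2 encode the catalytic and the substrate-binding subunit of the matrix peptidase that removes presequences. They were at similar levels in non-stress libraries (84.85 and 79.75 against 76.29 and 71.09 FPKM), and MAS1 then rose 2.58-fold and MAS2 1.49-fold, the latter without passing when ribosomal protein genes were left out of the total (0.13, adjusted p = 0.074). The MAS1 to MAS2 ratio went from 1.11 and 1.12 to 1.89 and 1.98. IMP1 and IMP2, the catalytic subunits of the inner membrane peptidase, rose 2.31-fold and 2.68-fold, with ratios of 1.12 and 1.01 in non-stress and 0.903 and 0.927 in stress libraries. SOM1, the third subunit, was at 70.75 and 78.72 against 86.88 and 85.85 FPKM (0.21 ± 0.066, adjusted p = 0.0146), a sign that turned with ribosomal protein genes left out of the total (-0.23), and it did not pass without stress replicate 1 (adjusted p = 0.0609). ICP55, which trims further residues after MAS1 and MAS2 have cut, was at 64.5 and 61.11 against 63.87 and 59.65 FPKM and did not pass (-0.02 ± 0.064, adjusted p = 0.732), but was called higher after median centring (0.17, adjusted p = 0.029) and lower with ribosomal protein genes left out (-0.46, 8.87e-05). OXA1, the insertase for proteins that enter the inner membrane from the matrix, went from 150.56 and 142.03 to 175.97 and 177.13 FPKM, a rise of 1.21-fold that had the opposite sign with ribosomal protein genes left out of the total (-0.17).

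**Figure D2:**
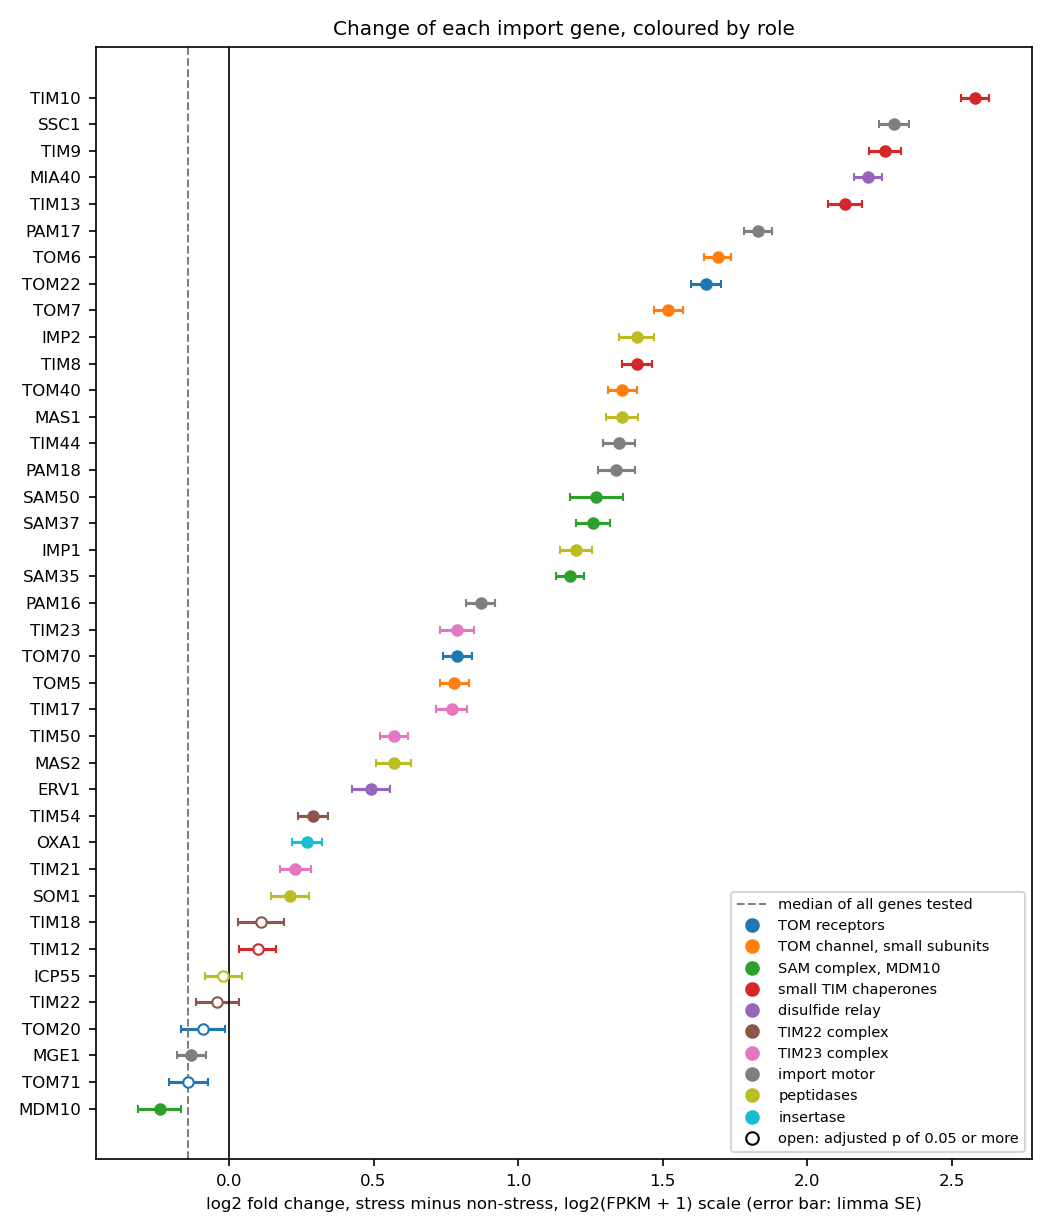
Log2 fold change of each import gene (stress minus non-stress, log2(FPKM + 1) scale) with the limma standard error, coloured by role and sorted by size, with open circles for genes that did not pass and a dashed line at the median of all genes tested (-0.14). The 5 largest rises are those of TIM10, SSC1, TIM9, MIA40 and TIM13, all above 2, and 8 genes from TIM18 (0.11) to MDM10 (-0.24) lie near the line of all genes.

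Ratios within 14 pairs of genes that act in a complex or are copies of each other were compared over the libraries. In 13 of them the ratios of the groups did not overlap, the exception being TIM17 to TIM23. Among single genes 93.8% did not overlap, so nothing is read from this count. With 2 libraries a group, the exact two-sided permutation test cannot go below p = 0.333, which 13 pairs reached (0.359 after Benjamini-Hochberg adjustment over the 14 pairs), so none passed a test. The shift of the log2 ratio was over 1 in size for 4 pairs: TIM10 to TIM12 (2.48), SSC1 to MGE1 (2.43), TOM20 to TOM22 (-1.75) and MIA40 to ERV1 (1.72). These ratios are taken within a library and do not depend on a common factor applied to it. In each of the 4 pairs 1 gene rose at least 3-fold while its partner changed by less than 1.5-fold.

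**Figure D3:**
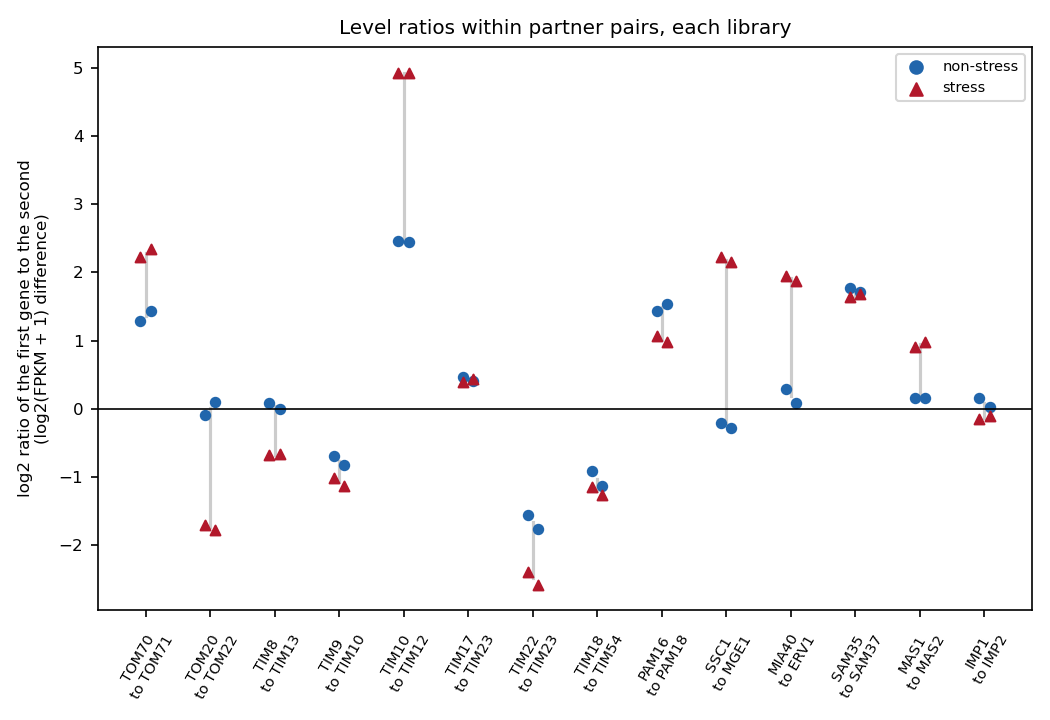
Log2 ratio of the first gene to the second (difference of log2(FPKM + 1)) for 14 partner pairs, with a blue circle per non-stress and a red triangle per stress library. The TIM10 to TIM12, SSC1 to MGE1, TOM20 to TOM22 and MIA40 to ERV1 ratios shift by over 1, while TIM17 to TIM23 overlaps.

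A list of 31 other factors of import, sorting and delivery was read beside the machinery. Of these, 25 rose (80.6%, against 39.8% of all genes tested) and 6 fell (19.4%, against 47.9%), and their median log2 fold change was 0.86, close to that of the machinery, but their range was wider (-3.50 to 3.86, against -0.24 to 2.58). The largest rises were those of OM14, an outer membrane protein that binds cytosolic ribosomes (170 ± 4.25 to 2479 ± 31.5 FPKM), JID1, a mitochondrial J protein (6.62 ± 0.792 to 90.0 ± 2.72 FPKM), and MBA1, which docks mitochondrial ribosomes at the inner membrane (44.6 ± 0.240 to 274 ± 4.61 FPKM; SD, n = 2). The largest falls were those of YDJ1, a cytosolic J protein that helps deliver precursors (310 ± 7.01 to 26.6 ± 3.14 FPKM), HOT13, which keeps MIA40 free of zinc (77.3 ± 4.26 to 21.1 ± 1.58 FPKM), and EGD2, a subunit of the complex that meets nascent chains at the ribosome (924 ± 64.1 to 377 ± 7.92 FPKM).

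Carriers of the inner membrane, the substrates of the TIM22 route, were called in shares near those of all genes tested. Of 30 carrier genes 15 rose (50%, against 39.8% of all), 13 fell (43.3%, against 47.9%) and 2 did not pass, with a median of 0.07. The largest rises were those of SFC1 (succinate and fumarate), ODC1 (oxodicarboxylates) and PET9, the main ADP and ATP carrier, which went from 83.86 and 89.91 to 2603.05 and 2489.33 FPKM. The largest falls were those of YMC2, of ODC2, the copy of ODC1 (313 ± 24.6 to 21.7 ± 1.46 FPKM), and of AAC3, a copy of PET9 known for its role without oxygen (27.5 ± 0.198 to 1.65 ± 0.134 FPKM; SD, n = 2). Rises of at least 2-fold numbered 19 among the 39 import genes, 9 among the 30 carriers and 14 among the 31 other factors, against 19.0% of all genes. Falls of that size numbered 0, 9 and 4, against 26.9% of all genes, and the differences between lists were not tested.

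**Figure D4:**
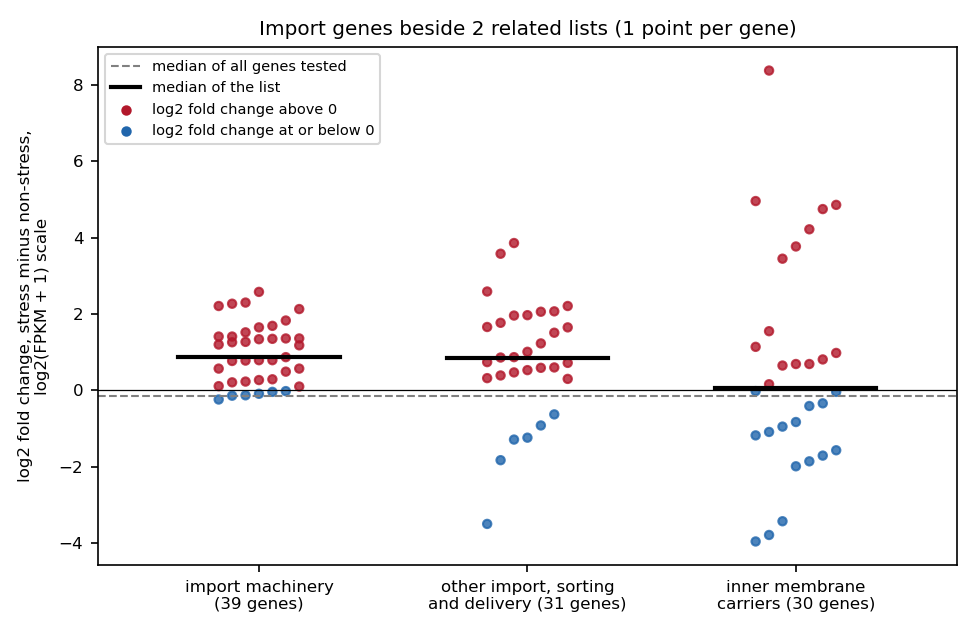
Log2 fold change (stress minus non-stress, log2(FPKM + 1) scale) of every gene in the import machinery (39 genes), the list of other import, sorting and delivery factors (31) and the carriers (30), with a bar at each list's median (0.87, 0.86 and 0.07) and a dashed line at the median of all genes (-0.14). The import genes span -0.24 to 2.58, a narrower range than either other list.

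Because the smallest changes depend on how libraries are scaled, the members with a log2 fold change under 0.6 in size were compared over 5 scalings. The median of the 39 genes lay above that of all genes by 1.01 with the deposited scaling and by 0.59 after quantile normalization. The difference was 1.00 with equal FPKM sums, 1.01 after median centring and 0.99 with ribosomal protein genes left out of the total. These last scalings apply a common factor to each library and could hardly change the difference, so nothing is read from their likeness. With ribosomal protein genes left out, 25 members rose and 12 fell, where 1606 and 3574 of all 5784 genes tested did. Of all genes called 31% were higher, where the deposited scaling gave 45.4%. The 25 include all 19 members that rose at least 2-fold.

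**Figure D5:**
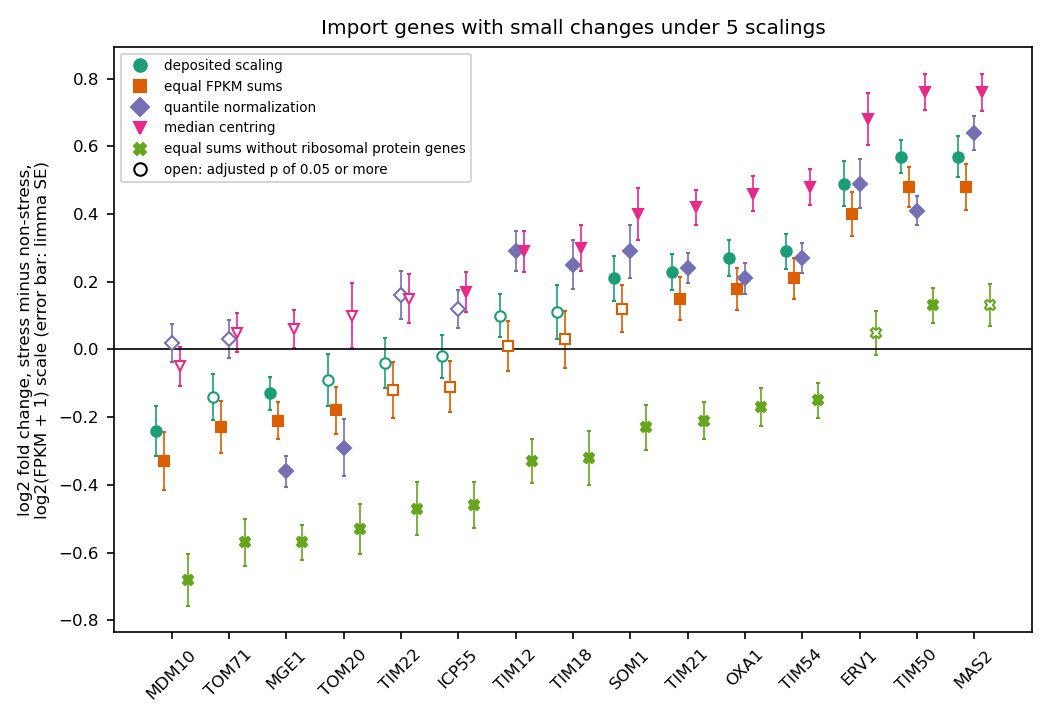
Log2 fold change (stress minus non-stress, log2(FPKM + 1) scale) with the limma standard error for the 15 import genes under 0.6 in size, under 5 scalings of the libraries, with open symbols for genes that did not pass. With ribosomal protein genes left out of the total, 12 of the 15 are below 0 and pass. All 15 sit lower there than with the deposited scaling, because a common factor applied to each library lowers nearly all genes alike.

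In the authors' deposited table, a column headed WGCNA gives a module colour for some genes. It reads blue for 4 of the 39 members, TOM40, TIM9, TIM10 and MIA40, and is empty for the other 35. Blue was given to 356 genes in all, 6.0% of the table. The labels do not explain how the modules were made.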

How the data were processed

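RNA of 4 libraries of strain CY was analysed, 2 per condition, grouped by the sample titles. The authors deposited 1 table of FPKM per gene and library, per the file headers. HISAT2 2.1.0, Bowtie2 2.2.5, RSEM 1.2.8 and genome build R64 are listed in the submitters' processing notes, and filters on reads are not given in the sources used here. Other deposited columns give gene and transcript lengths. The deposited length of the longest transcript was a multiple of 3 for 98.8% of genes, so these are coding lengths. Of 5897 genes, 5894 had their identifier in the R64 annotation and 5814 had the same coordinates there, all 39 members included. A total of 2 gene symbols that read as dates, among them OCT1, were restored by gene identifier. Depth came, together with the 36 or 37 bases taken off each length, from fitting low FPKM values to whole fragments (96.1% to 98.6% of 51 to 73 values within 0.1 of a whole number). It is an estimate, so no count test was run.

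limma 3.58.1 in R 4.3.3 (lmFit, eBayes with a trend, two-sided, 2 residual and 6.51 prior degrees of freedom) compared log2(FPKM + 1) between stress and non-stress for the 5784 genes that reached an FPKM of 1 in 2 or more libraries. P-values were adjusted by Benjamini-Hochberg over all genes tested, with a threshold of 0.05. The log2(FPKM + 1) scale understates changes of low genes. Where a fold is printed, it divides one group's mean FPKM by the other's. The fit was first tested on simulated data. It called 39 of 50 genes with a simulated log2 change of 0.5, 45 of 50 at 1, 49 of 50 at 2 and 45 of 50 at -1. Of 5570 unchanged genes 6 were called. Most genes were unchanged in that simulation, unlike in these data, where 87.7% were called. The median chi-square per gene between replicates was 2.25 (non-stress) and 0.81 (stress), where sampling gives 0.45, and each library was counted as its own replicate.

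Members and lists were chosen with earlier results of these data known. All 39 members were named, and of each other list the 3 largest rises and falls. Alternatives were 4 other scalings, a pseudocount of 0.1, no filter or one at an FPKM of 5, a replicate block, omission of each library and a threshold of 0.01. Python 3.11.15, pandas 2.3.3, numpy 2.4.6, scipy 1.17.1, Biopython 1.88 and matplotlib 3.10.9 were used, the proteins being translated from R64 coding sequences and aligned globally.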

Additional observations from a re-analysis of the deposited data

How the results depend on the processing

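The 31 rises were 25 to 34 under the alternatives, where rises among all genes tested, 2300 as reported, numbered 1606 to 2692. The call and sign of 25 members were the same under every alternative, among them all members that rose at least 2-fold. The count of members that fell, 2 as reported, was 4 with equal FPKM sums, 0 after median centring, 12 with ribosomal protein genes left out of the total, 0 at a threshold of 0.01 and between 0 and 3 with a library left out (0 without either stress library). Among all 5784 genes tested, 2771 fell as reported, 2933 with equal FPKM sums and 2447 after median centring. With ribosomal protein genes left out 3574 of them fell, and at a threshold of 0.01 2610 did. The median log2 fold change of the members, 0.87, was 0.68 after quantile normalization and 0.78 with equal FPKM sums. It was 1.06 after median centring and 0.43 with ribosomal protein genes left out. In this order, these scalings moved the median gene by 0.18, -0.09, 0.19 and -0.43. Signs turned only for changes under 0.3 in size. All 6 members reported as not passing gained a call under some alternative, and TIM12, TIM18 and ICP55 gained one in each direction. With ribosomal protein genes left out, TIM12 (-0.33), TIM18 (-0.32), TIM54 (-0.15), TIM21 (-0.21), SOM1 (-0.23) and OXA1 (-0.17) were lower, although TIM12 (0.29 and 0.29) and TIM18 (0.25 and 0.30) were called higher after quantile normalization and median centring. After quantile normalization TOM71 (0.03), MDM10 (0.02), TIM22 (0.16) and ICP55 (0.12), and after median centring TOM20 (0.10), TOM71 (0.05), TIM22 (0.15), MGE1 (0.06) and ICP55 (0.17), were above 0. With a library left out, TOM20 ranged from -0.22 to 0.03, TIM22 from -0.13 to 0.05, ICP55 from -0.07 to 0.02 and the TIM17 to TIM23 shift from -0.05 to 0.01. The cause of these turns was not tested. With the replicate block 31 members rose and 2 fell, and no member's call changed. The numbers were not taken as pairs, because the labels do not say that same-numbered libraries share a culture or day. Such libraries did not deviate together (r = -0.005 across genes). With 2 libraries a group, calls for changes under 0.3 in size are the least certain.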
